A study of Homo sapiens with 4 samples.

Results

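The lysosome is the acidic organelle in which cells break down proteins, glycans and lipids, and 35 genes that encode its parts were followed in SKOV3 cells exposed to 20(S)-Rg3, a saponin of ginseng. The set holds the transcription factors TFEB and TFE3, the calcium channel gene MCOLN1, 6 membrane protein genes, 5 protease genes, 9 glycosidase genes, 2 sulfatase genes, 4 genes of lipid breakdown and 6 genes of the proton pump. They were taken by symbol as genes of the lysosome, with earlier results of these data known, from a table of 40205 genes, in which all 35 were present. All 35 also passed the filter on low counts, which left 16323 genes to test.

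SKOV3 is a line of ovarian cancer cells, here grown in medium with serum. The exposed group was 2 libraries from cells given Rg3 at 80 µg/mL for 24 h, and the control group was 2 libraries of SKOV3 cells that the labels call control, without naming a vehicle. RNA was extracted whole, freed of ribosomal RNA and sequenced, and the labels call the RNA of each library pooled. Nothing in the labels says that replicate libraries stem from different cultures, so the p-values cover no more than the variation among these 4 libraries, part or all of which may be technical. All results concern 1 cell line.

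Lysosomal enzymes work at low pH, which the vacuolar ATPase maintains by pumping protons across the lysosomal membrane. Its V1 sector splits ATP on the cytosolic side, and its V0 sector forms the proton path in the membrane. TFEB and TFE3 bind a short palindrome known as the CLEAR element, with the core TCACGTG, in front of many lysosomal genes. In fed cells the kinase mTORC1 keeps both factors in the cytoplasm, so their activity is known to depend on where the protein is as well as on how much of it is made.

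The libraries held 30132517 and 24571619 counts with Rg3 and 24482846 and 26731913 counts in control. The 35 genes took 0.2997% and 0.2651% of the counts with Rg3 and 0.2744% and 0.2706% in control. Of the markers of an ovarian carcinoma line, the keratin genes KRT7, KRT8 and KRT18 had 47959 to 74438 counts in every library and ERBB2 had 1089 to 1649. EPCAM had 0 counts in all 4 libraries, KRT19 and WT1 had 0 to 3, PAX8 had 8 to 18 and MUC16 had 15 to 44. Markers of blood, vessel and stromal cells summed to 5.97 and 2.12 CPM with Rg3 and to 3.45 and 6.73 CPM in control, where CPM is counts scaled to a common library size by the TMM method. Of these 7 markers 5 had a count in each library except control 2, which had all 7 and held 79 counts of the haemoglobin gene HBB, against 0 in the others. The part of this in the results was not tested.

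Promoters of 24 of the 35 genes could be read from RefSeq (build GRCh38.p14) and are shown for 5 of them, because TFEB and TFE3 are known to act through the letters in capitals. Capitals mark that core, TCACGTG on either strand, and sites that read so on both strands have 1 letter more. Each sequence is the 250 bases before the annotated start, on the strand of the gene. NEU1, which had the largest difference of the set, lies at chr6:31862822-31863071 (minus strand). CTSA, whose protein holds the NEU1 enzyme stable, lies at chr20:45891085-45891334 (plus strand). LAMP1 (chr13:113296989-113297238, plus strand) has the most matches of the 24 genes that could be read. MCOLN1 (chr19:7522374-7522623, plus strand) has sites that match on both strands, and GLA (chrX:101407926-101408175, minus strand) has no match.
NEU1: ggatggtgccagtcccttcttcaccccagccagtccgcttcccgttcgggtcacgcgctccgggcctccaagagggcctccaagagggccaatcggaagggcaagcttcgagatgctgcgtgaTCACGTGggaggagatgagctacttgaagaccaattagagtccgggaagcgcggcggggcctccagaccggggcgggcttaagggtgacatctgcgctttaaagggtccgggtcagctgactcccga
CTSA: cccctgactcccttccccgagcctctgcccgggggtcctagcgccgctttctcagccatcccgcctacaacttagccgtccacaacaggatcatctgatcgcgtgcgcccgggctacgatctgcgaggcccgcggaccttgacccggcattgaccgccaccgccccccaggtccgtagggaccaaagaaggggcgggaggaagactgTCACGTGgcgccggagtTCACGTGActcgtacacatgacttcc
LAMP1: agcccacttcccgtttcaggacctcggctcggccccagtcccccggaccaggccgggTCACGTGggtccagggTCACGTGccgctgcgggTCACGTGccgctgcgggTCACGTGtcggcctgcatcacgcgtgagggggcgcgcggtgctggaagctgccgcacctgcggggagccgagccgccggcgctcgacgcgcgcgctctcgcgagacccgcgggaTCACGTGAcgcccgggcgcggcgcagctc
MCOLN1: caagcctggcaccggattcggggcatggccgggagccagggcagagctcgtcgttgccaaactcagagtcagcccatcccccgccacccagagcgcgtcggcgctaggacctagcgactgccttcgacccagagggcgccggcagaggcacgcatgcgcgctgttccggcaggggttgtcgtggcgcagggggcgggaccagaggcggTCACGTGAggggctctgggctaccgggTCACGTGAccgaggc
GLA: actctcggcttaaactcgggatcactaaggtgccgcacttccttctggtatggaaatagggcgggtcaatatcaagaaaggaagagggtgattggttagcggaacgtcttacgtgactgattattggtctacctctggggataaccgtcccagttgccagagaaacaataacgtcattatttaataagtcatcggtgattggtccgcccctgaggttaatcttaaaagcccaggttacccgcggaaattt

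Most of the lysosomal transcripts lay close to their control level in cells given Rg3, with a median absolute log2 fold change of 0.11. It was 0.125 over the protein-coding genes tested and 0.14 over all genes tested. The median SE was also smaller in the set, at 0.152, against 0.184 for protein-coding genes and 0.205 for all genes. edgeR's quasi-likelihood test, adjusted over all 16323 genes by the method of Benjamini and Hochberg, called 0 of the 35 higher and 0 lower. Over all genes it called 5 higher (0.0306%) and 0 lower (0%). At an unadjusted edgeR p under 0.05 there were 4 members higher, beside 1.83% of all genes, and 1 lower, beside 2.9% of all genes. DESeq2 called 1 member higher, NEU1, beside 0.225% of all genes, and 0 lower, beside 0.112%. limma voom called 0 in either direction, beside 0.0306% and 0% of all genes. With library sizes taken from protein-coding genes alone, edgeR called 8 of all genes, 6 higher and 2 lower, and again 0 members.

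The median log2 fold change of the 35 genes was 0.04, against 0.01 for all genes tested and 0.03 for the 12040 protein-coding genes tested. Of the 35, 21 had a log2 fold change above 0 (60%, against 52.5% of all genes) and 14 below 0 (40%, against 47.5%). The middle 50% of the set lay between −0.09 and 0.12, and the extremes were −0.33 for CTSB and 0.88 for NEU1. For 8 members (22.9%) both Rg3 libraries lay above both controls, where 15.3% of all genes did so. Both lay below both controls for 4 members (11.4%), where 17% of all genes did so. For the other 23 the groups overlapped. Of the 12040 protein-coding genes tested, 6794 had a log2 fold change above 0 and 5246 below 0. Both Rg3 libraries lay above both controls for 2002 of them and below both for 1703. These are relative levels: fewer cells with a transcript and less of it per cell cannot be told apart in them.

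**Figure D1:**
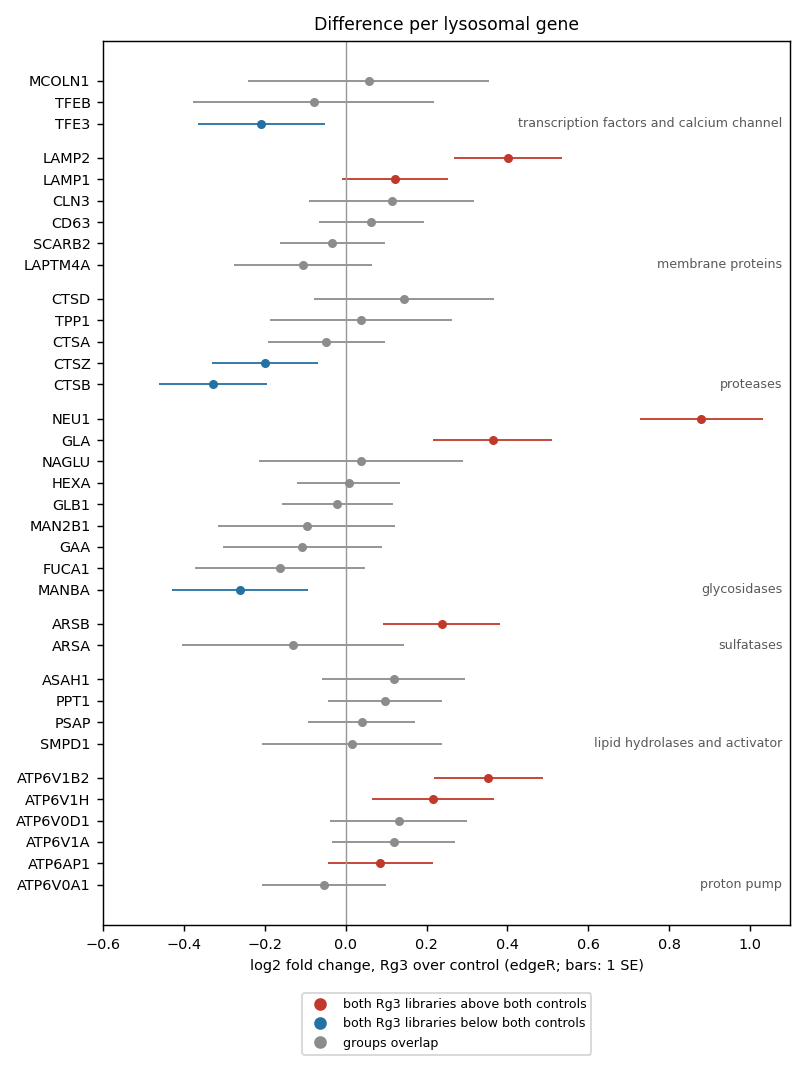
Log2 fold change of each of the 35 genes, Rg3 over control, from edgeR (x axis, bars 1 SE), ordered within each role. NEU1 at 0.88 stands to the right of the rest, which lie between −0.33 and 0.40.

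**Figure D2:**
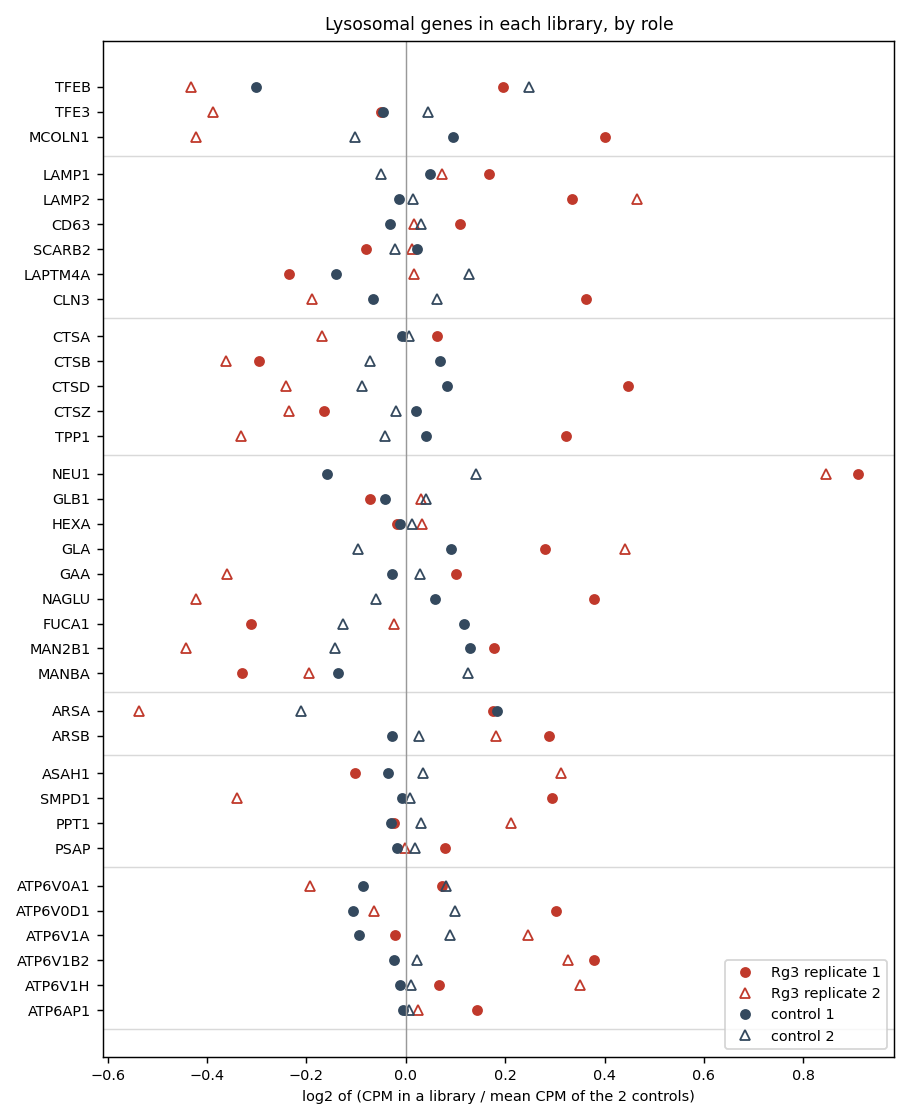
Each gene in each library as log2 of its CPM over the mean CPM of the 2 controls (x axis), with Rg3 libraries in red and controls in dark blue. The Rg3 libraries lie on both sides of the controls for TPP1, NAGLU and SMPD1, and together on the right for NEU1 and LAMP2.

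TFEB, TFE3 and MCOLN1 stand at the head of the pathway. TFEB had 5.32 and 3.45 CPM with Rg3, against 3.78 and 5.52 CPM in control, so the groups overlapped at a low level. Its log2 fold change was −0.08 (SE 0.30), and the sign turned when control 2 or Rg3 replicate 2 was left out. TFE3, a close relative that binds the same sequence, had 57.2 and 45.2 CPM with Rg3, against 57.3 and 61.1 CPM in control. Both Rg3 libraries lay below both controls, but Rg3 replicate 1 did so by a margin far smaller than the gap between the controls, and the edgeR adjusted p was 0.999 at a log2 fold change of −0.21 (SE 0.16). Leaving out Rg3 replicate 2 brought that value to −0.05, and leaving out Rg3 replicate 1 brought it to −0.38. MCOLN1, which encodes the channel that releases calcium from the lysosome, had 6.17 and 3.49 CPM with Rg3, against 4.99 and 4.35 CPM in control. The controls lay between the Rg3 libraries. Its log2 fold change was 0.06 (SE 0.30), −0.42 without Rg3 replicate 1 and 0.40 without Rg3 replicate 2.

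Among the 6 membrane protein genes, LAMP2 had the largest difference. LAMP2 and LAMP1 encode the most abundant glycoproteins of the lysosomal membrane, and LAMP2 is also known for a splice form that takes up proteins in chaperone-mediated autophagy. Counts per gene do not separate the splice forms. LAMP2 had 56.4 and 61.7 CPM with Rg3, against 44.3 and 45.1 CPM in control. Both Rg3 libraries lay well above both controls, which were close together. The fold was 1.32 (log2 fold change 0.40, SE 0.13) with an edgeR unadjusted p of 0.0184 and an adjusted p of 0.959, so the difference did not pass. LAMP2 passed in no fit of all 4 libraries, and over all alternatives the log2 fold change ran from 0.34 to 0.47.

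LAMP1 had 126 and 119 CPM with Rg3, against 117 and 109 CPM in control. Both Rg3 libraries were above the controls, but the nearest libraries of the groups were closer together than replicates were, and the log2 fold change was 0.12 (SE 0.13). CD63, a tetraspanin of late endosomes and exosomes, averaged 154 ± 7.04 CPM with Rg3 and 147 ± 4.50 CPM in control (SD, n = 2 each, here and below). SCARB2, the membrane protein that carries glucocerebrosidase to the lysosome, averaged 58.8 ± 2.70 CPM with Rg3 and 60.2 ± 1.32 CPM in control. Both overlapped between the groups. LAPTM4A, a small membrane protein gene, had a log2 fold change of −0.11 (SE 0.17). CLN3, mutated in a childhood form of neuronal ceroid lipofuscinosis, had 0.11 (SE 0.20), with 28.7 and 19.6 CPM with Rg3 on either side of 21.3 and 23.3 CPM in control. CD63 overlaps RDH5 and its read-through gene, which had at most 51 and 227 counts in a library.

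Of the 5 protease genes, 2 had a log2 fold change above 0 and 3 below 0. CTSB, a cysteine protease, had 193 and 185 CPM with Rg3, against 249 and 226 CPM in control. Both Rg3 libraries lay below both controls. The log2 fold change was −0.33 (SE 0.13), the lowest of the set, with an edgeR unadjusted p of 0.0423 and an adjusted p of 0.999, and it ran from −0.40 to −0.25 over the alternatives. CTSZ, a cysteine carboxypeptidase, had 45.7 and 43.5 CPM with Rg3, against 51.9 and 50.5 CPM in control. It too lay below both controls without overlap, at a log2 fold change of −0.20 (SE 0.13) and an edgeR adjusted p of 0.999. CTSA, a serine carboxypeptidase that also shields NEU1 and GLB1 from degradation, averaged 42.8 ± 4.86 CPM with Rg3 and 44.3 ± 0.296 CPM in control. CTSD, the aspartic protease, had 284 and 177 CPM with Rg3, against 221 and 196 CPM in control, and TPP1, a tripeptidyl peptidase, had 23.2 and 14.7 CPM with Rg3, against 19.1 and 18.0 CPM in control. In both genes Rg3 replicate 1 was the highest of the 4 libraries and Rg3 replicate 2 the lowest.

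NEU1 had the largest difference of the 35 genes. It encodes the lysosomal sialidase, which removes terminal sialic acid from glycoproteins and glycolipids and whose loss causes sialidosis. It had 67.5 and 64.6 CPM with Rg3, against 32.2 and 39.6 CPM in control, or 2080 and 1555 counts against 793 and 1047. The Rg3 libraries were close to each other and both far above the higher control. The means were 66.0 ± 2.10 CPM with Rg3 and 35.9 ± 5.25 CPM in control, a fold of 1.84 (log2 fold change 0.88, SE 0.15).

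In edgeR's quasi-likelihood test NEU1 ranked 33 of 16323 by p (unadjusted p = 0.000542) and did not pass (adjusted p = 0.268). limma voom gave an adjusted p of 0.298. DESeq2 called it higher (adjusted p = 0.00369), and so did edgeR when no filter on low counts was set (adjusted p = 8.25e-05), at log2 fold changes of 0.88 and 0.89. A fit without 1 library leaves 1 in its group, which is assumed to vary like the other group. Of such fits only the log2 fold change of NEU1 is given. It was 0.85 without Rg3 replicate 1, 0.91 without Rg3 replicate 2, 0.75 without control 1 and 1.04 without control 2. The log2 fold change stayed within 0.75 to 1.04 in all 10 alternatives, while the call depended on the tool and its settings. As both Rg3 libraries lay far above both controls, leaving out a library could hardly turn its sign.

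**Figure D3:**
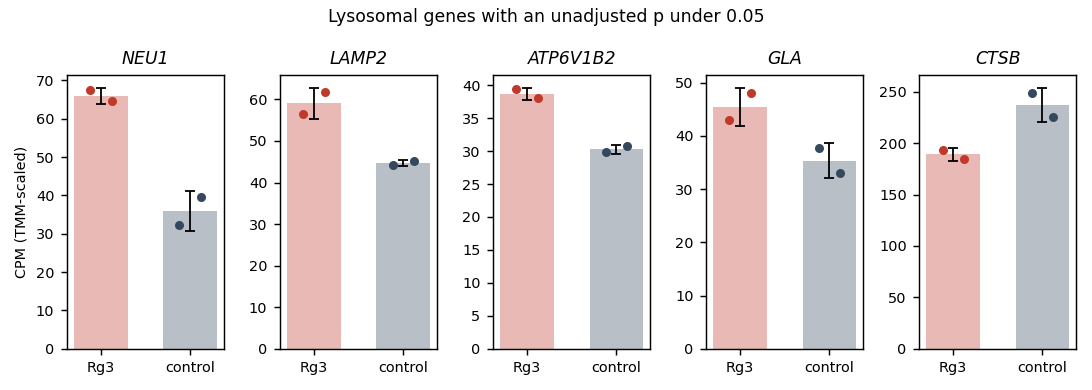
CPM (y axis, from 0) of the 5 genes with an unadjusted edgeR p under 0.05, as points per library, bars at the group mean and error bars of 1 SD (n = 2). Rg3 libraries lie above both controls for NEU1, LAMP2, ATP6V1B2 and GLA, and below both for CTSB.

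The partners of NEU1 in its complex differed from it. GLB1, the lysosomal beta-galactosidase, had 37.7 and 40.5 CPM with Rg3, against 38.5 and 40.8 CPM in control, and CTSA is given above. Their log2 fold changes were −0.02 (SE 0.14) and −0.05 (SE 0.14). The difference between NEU1 and its partners was not itself tested. TMPPE, a gene that overlaps GLB1, had 1406 and 1131 counts with Rg3 and 1114 and 1213 in control. GLB1 had 1161 and 975 counts with Rg3 and 949 and 1077 in control, and how the counting divided reads between these overlapping genes is not known.

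GLA, the alpha-galactosidase whose loss causes Fabry disease, came next among the glycosidases. It had 42.9 and 48.0 CPM with Rg3, against 37.6 and 33.0 CPM in control. The groups did not overlap, and the nearest libraries of the 2 groups were about as far apart as the libraries within each. The fold was 1.29 (log2 fold change 0.36, SE 0.15; edgeR unadjusted p = 0.0411, adjusted p = 0.999). GLA passed in no fit of all 4 libraries, and over the alternatives the log2 fold change ran from 0.27 to 0.47. GLA overlaps the read-through gene RPL36A-HNRNPH2, which had 388 to 528 counts in a library.

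The other 6 glycosidase genes had log2 fold changes from −0.26 to 0.04. MANBA, the beta-mannosidase, had 14.7 and 16.2 CPM with Rg3, against 16.9 and 20.2 CPM in control. It lay below both controls, by less than the gap between them, at −0.26 (SE 0.17; edgeR adjusted p = 0.999). HEXA, the alpha subunit of beta-hexosaminidase, had 111 and 116 CPM with Rg3, against 112 and 114 CPM in control, and its log2 fold change of 0.01 (SE 0.13) was the nearest to 0 of the 35. FUCA1, the fucosidase, was at −0.16 (SE 0.21), GAA, which breaks down glycogen, at −0.11 (SE 0.20), and MAN2B1, the alpha-mannosidase, at −0.10 (SE 0.22). NAGLU, an enzyme of heparan sulfate breakdown, had 28.6 and 16.4 CPM with Rg3, against 22.9 and 21.1 CPM in control. Its log2 fold change of 0.04 (SE 0.25) therefore averages libraries that lay far apart.

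Of the 2 sulfatase genes, ARSB, which removes sulfate from dermatan and chondroitin sulfate, had 28.6 and 26.5 CPM with Rg3, against 22.9 and 23.8 CPM in control. The groups did not overlap, at a log2 fold change of 0.24 (SE 0.14; edgeR adjusted p = 0.999). ARSA, which acts on the myelin lipid sulfatide, had 10.1 and 6.19 CPM with Rg3, against 10.2 and 7.76 CPM in control, at −0.13 (SE 0.28).

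All 4 genes of lipid breakdown overlapped between the groups, as did 11053 of the 16323 genes tested. ASAH1, the acid ceramidase, was at 0.12 (SE 0.18), PPT1, which removes palmitate from proteins, at 0.10 (SE 0.14), and SMPD1, the acid sphingomyelinase, at 0.02 (SE 0.22), as log2 fold changes. PSAP, which encodes the saposins that present sphingolipids to lysosomal enzymes, had 927 and 878 CPM with Rg3, against 867 and 889 CPM in control. It rested on 21136 to 28553 counts in a library, and its log2 fold change was 0.04 (SE 0.13). PPT1 overlaps CAP1, which had 4476 to 5308 counts in a library, beside 1767 to 2219 for PPT1.

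Of the 6 proton pump genes 5 had a log2 fold change above 0, with a median of 0.12, and 0 passed. ATP6V1B2, the B subunit of the head that splits ATP, had 39.4 and 38.0 CPM with Rg3, against 29.8 and 30.8 CPM in control. Replicates were close in both groups, which did not overlap. The fold was 1.28 (log2 fold change 0.35, SE 0.14; edgeR unadjusted p = 0.0339, adjusted p = 0.999), and it ran from 0.33 to 0.38 over all 10 alternatives, a narrow range. ATP6V1H, a regulatory subunit of the same sector, had 41.7 and 50.7 CPM with Rg3, against 39.5 and 40.1 CPM in control. Both Rg3 libraries lay above, Rg3 replicate 1 only slightly, and the log2 fold change of 0.21 (SE 0.15) came to 0.35 when Rg3 replicate 1 was left out and to 0.07 when Rg3 replicate 2 was.

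ATP6V1A, the catalytic subunit, averaged 110.5 ± 14.5 CPM with Rg3 and 102 ± 9.16 CPM in control, and overlapped. ATP6V0D1, a V0 subunit that joins the sectors, averaged 49.5 ± 8.85 CPM with Rg3 and 45.2 ± 4.51 CPM in control. ATP6V0A1, a membrane subunit of V0, was the one below 0, at −0.05 (SE 0.15). ATP6AP1, an accessory subunit needed to assemble the pump, had 82.6 and 76.1 CPM with Rg3, against 74.5 and 75.1 CPM in control, and lay above both controls at a log2 fold change of 0.09 (SE 0.13).

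The Rg3 libraries lay apart from each other for many of the 35 genes. They were farther apart than the group means for 26 members (74.3%), as for 70.4% of all genes, and farther apart than the controls for 29 (82.9%), as for 70.8% of all genes. Rg3 replicate 1 exceeded Rg3 replicate 2 by over 1.5-fold for 8 members (22.9%), where 11.3% of all genes did so. These 8 were MCOLN1, NAGLU, ARSA, CTSD, TPP1, SMPD1, MAN2B1 and TFEB, with log2 ratios from 0.62 to 0.81. The reverse, Rg3 replicate 2 over 1.5-fold above replicate 1, held for 0 members and 7.62% of all genes, and the controls were over 1.5-fold apart for 0 members and 8.27% of all genes. The 5 genes with an unadjusted edgeR p under 0.05 had log2 ratios between the Rg3 libraries of −0.16 to 0.07. A small p favours genes whose replicates lie close together, so these ratios follow in part from how the 5 were picked. The median over the set was 0.09 between the Rg3 libraries and −0.03 between the controls. Small nucleolar RNA took 14.46% and 16.38% of the counts of the Rg3 libraries and 16.14% and 15.56% of the controls. Its part in these gaps was not tested.

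**Figure D4:**
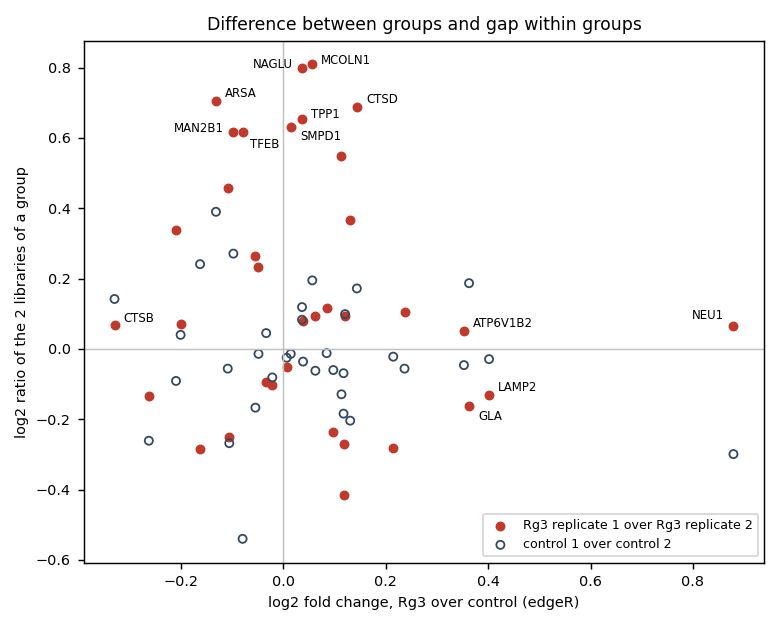
For each of the 35 genes, the log2 ratio of replicate 1 to replicate 2 within a group (y axis; red filled, Rg3; dark open, control) against the log2 fold change of Rg3 over control (x axis). The 8 genes high in Rg3 replicate 1 lie between −0.13 and 0.14 on the x axis, and NEU1 sits at 0.88 with a ratio of 0.07 between its Rg3 libraries.

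Promoter letters were set beside the differences. In the 250 bases before the start, TCACGTG on either strand was found in 9 of the 24 genes with a RefSeq promoter, MCOLN1, LAMP1, CLN3, CTSA, CTSD, NEU1, GAA, ARSB and ATP6V0D1. It was found in 4.02% of the 27305 genes with a promoter in the table (3.31% of 35116 windows). The set was drawn up as lysosomal genes, many of which are known to carry this element. The 6-letter E-box CACGTG, which TCACGTG contains, was found in 10 of the 24 genes and in 7.73% of all genes. TCACNCCAC, a form of the sterol response element, was found in 0 of the 24 and in 1.09% of all genes.

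In the sequences shown above, NEU1 has 1 site, which begins 127 bases before the start, CTSA and MCOLN1 have 2 each, and LAMP1 has 5. The 9 genes with TCACGTG had a median log2 fold change of 0.12, with 7 above 0. The 15 without it had a median of −0.03, with 6 above 0. This split was not tested, and the median SE of a single gene of the set was 0.152. NEU1 and GLA, both above their controls, stood on different sides of this division, and LAMP1, with the most sites, had 0.12. A match is a stretch of letters and not a measured binding site. For the 15 genes without one, the letters are not in this window. No window was used for HEXA, ATP6V1B2, ARSA, CTSB, ATP6V1A, MANBA, ASAH1, PSAP, ATP6V1H, NAGLU and LAMP2.

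Further lysosomal genes, listed by function, gave 0 calls in either direction with edgeR or DESeq2 in all 5 lists. Of 37 further hydrolase symbols 32 were tested, of which 11 had a log2 fold change above 0 and 21 below 0, with a median of −0.09. The Rg3 libraries were both above the controls for 5 of them and both below for 10, where the shares over all genes were 15.3% and 17%. SMPDL3A, a relative of acid sphingomyelinase, had 1.53 and 1.74 CPM with Rg3, against 2.40 and 2.31 CPM in control, and NAAA, an amidase of lipid mediators, averaged 12.4 ± 1.31 CPM with Rg3 and 15.4 ± 0.235 CPM in control. These 2 had the smallest p of the list, at log2 fold changes of −0.53 (SE 0.28) and −0.31 (SE 0.17).

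Of 26 further membrane proteins and transporters 25 were tested, 18 above 0 and 7 below, with a median of 0.15. The groups did not overlap for 8 of them, 7 with Rg3 above and 1 with Rg3 below, where 15.3% of all genes lay above and 17% below. NPC1, which carries cholesterol out of the lysosome, had 43.9 and 39.4 CPM with Rg3, against 28.2 and 27.0 CPM in control. The groups were well apart, at a fold of 1.51 (log2 fold change 0.60, SE 0.14). The edgeR unadjusted p was 0.00358 and the adjusted p was 0.608. NPC1 passed in no fit of all 4 libraries, and was at 0.52 without Rg3 replicate 1 and at 0.67 without Rg3 replicate 2. TMEM55B, which encodes a phosphoinositide phosphatase of the lysosomal membrane, had 24.6 and 21.1 CPM with Rg3, against 16.4 and 17.6 CPM in control (log2 fold change 0.43, SE 0.16; edgeR adjusted p = 0.999). TMEM55B also passed in no fit of all 4 libraries, and was at 0.32 without Rg3 replicate 1 and at 0.53 without Rg3 replicate 2.

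Of 11 genes that deliver enzymes to the lysosome, all tested, 8 were above 0, with a median log2 fold change of 0.06. SORT1, a sorting receptor, had 30.3 and 29.1 CPM with Rg3, against 20.5 and 26.7 CPM in control (0.33, SE 0.17), and GNPTG, a subunit of the enzyme that makes the mannose phosphate tag, had 15.8 and 11.7 CPM with Rg3, against 16.1 and 16.7 CPM in control (−0.25, SE 0.19). The edgeR adjusted p was 0.999 for both.

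Of the 20 further pump genes 17 were tested, 13 above 0 and 4 below, with a median of 0.18. Without overlap, 9 lay above the controls and 3 below them, beside 15.3% and 17% of all genes. TCIRG1 and ATP6V0A4 encode alternative forms of the large V0 membrane subunit. TCIRG1 had 24.7 and 17.4 CPM with Rg3, against 34.0 and 28.7 CPM in control (log2 fold change −0.57, SE 0.20; edgeR unadjusted p = 0.0234, adjusted p = 0.999). ATP6V0A4 had 9.16 and 16.2 CPM with Rg3, against 7.75 and 8.82 CPM in control (0.61, SE 0.28; adjusted p = 0.999). Neither passed in a fit of all 4 libraries. TCIRG1 and ATP6V0A4 were at −0.84 and 0.97 without Rg3 replicate 1 and at −0.34 and 0.14 without Rg3 replicate 2.

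The list of TFEB relatives and nutrient sensing genes had a median of 0.08, and 14 of its 18 tested genes were above 0, with 7 above both controls and 1 below both, where 15.3% and 17% of all genes were. FLCN and FNIP1 encode partners that act on the Rag GTPases at the lysosome. FNIP1 had 35.2 and 29.1 CPM with Rg3, against 22.9 and 22.1 CPM in control (log2 fold change 0.51, SE 0.16; edgeR unadjusted p = 0.0123, adjusted p = 0.913). FLCN had 60.7 and 38.1 CPM with Rg3, against 33.4 and 27.6 CPM in control (0.70, SE 0.23; unadjusted p = 0.0179, adjusted p = 0.953). The groups did not overlap for either, but Rg3 replicate 1 carried much of FLCN, which was at 0.33 without it and at 0.99 without Rg3 replicate 2. Among fits of all 4 libraries, FLCN passed in edgeR when genes were not filtered (adjusted p = 0.0102) or a replicate term was added (adjusted p = 0.0188). FNIP1 passed in none of these, and was at 0.37 without Rg3 replicate 1 and at 0.65 without Rg3 replicate 2.

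**Figure D5:**
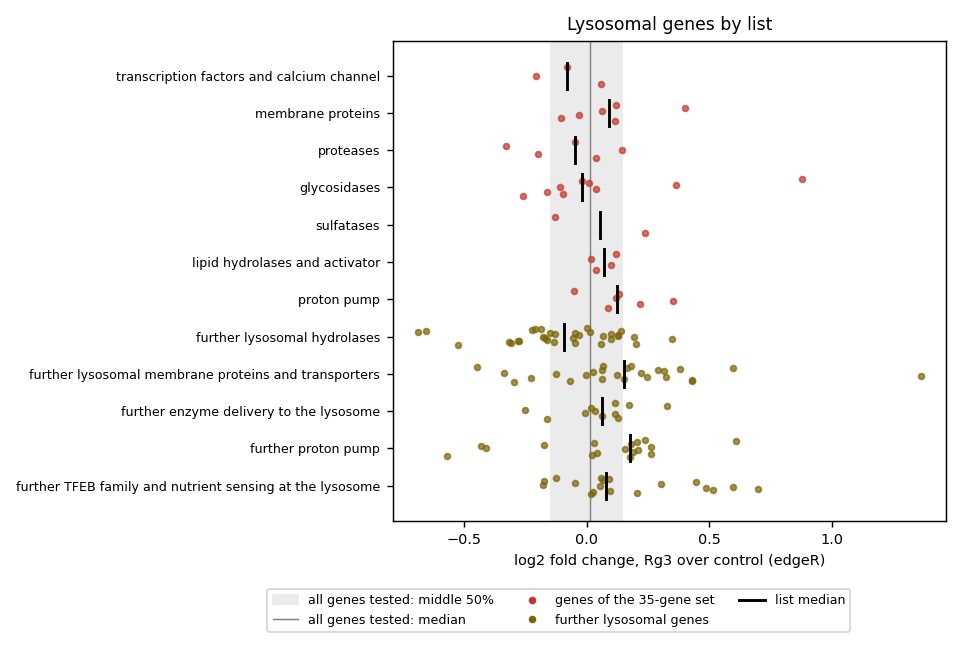
Log2 fold change, Rg3 over control (x axis), of every tested gene of the 35-gene set by role (red) and of the 5 further lists (brown), with list medians as black bars and the middle 50% of all genes tested in grey. List medians lie between −0.09 and 0.18. The grey band shows the spread of single genes and is no measure for a median.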

How the data were processed

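RNA of SKOV3 cells was sequenced in 2 libraries with Rg3 and 2 control libraries, grouped by the treatment label. The authors deposited raw read counts per gene symbol, whole numbers with no normalisation. The build was GRCh37, per the submitters' processing notes. Aligner, counter, annotation and strand setting are not given in the sources used here, so reads of overlapping, antisense or near-identical genes may be shared. Every row names a gene, and 14537 genes had no count.

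From these counts, edgeR 4.0.16 in R 4.3.3 kept genes with filterByExpr (minimum count 10, minimum total count 15), scaled libraries by TMM and ran the quasi-likelihood test on treatment alone (2 residual degrees of freedom), adjusted by Benjamini-Hochberg over all 16323 genes; an adjusted p under 0.05 was called. Standard errors come from the F statistic. Log2 ratios between libraries use log2 CPM with a prior count of 2. Alternatives were DESeq2 1.42.0, limma 3.58.1 voom, other scalings and filters, a replicate term, and leaving out each library.

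The members, the lists and the tests were chosen with earlier results of these data known. Values by library are given for the 10 members with the smallest p, those called by edgeR or DESeq2, and TFEB, TFE3, MCOLN1, LAMP1 and LAMP2, and for the 2 genes with the smallest p of each further list. Other values by library were chosen after they were seen. RefSeq tables of GRCh38.p14 gave gene classes (34189 of 40205 symbols matched), neighbours and promoters only. In 831 of 831 overlapping pairs of minus-strand promoter windows the sequences ran in gene order. CTSL1, an older symbol of CTSL, was on the hydrolase list and had no row.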

Additional observations from a re-analysis of the deposited data

How the results depend on the processing

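Over all genes edgeR called 5, against 54 with DESeq2, 214 without a low-count filter, 8 with library sizes from protein-coding genes and 155 with the replicate block, and from 49 to 884 when each library was left out in turn. Calls among the 35 genes numbered 0, against 1 with DESeq2, 1 without a low-count filter and 1 with the replicate block, NEU1 each time, and 0 to 3 when a library was left out. Members without overlap numbered 12 (34.3%, against 32.3% of all genes), and 15 to 30 with a library left out, as fewer libraries overlap less. Leaving out control 1 gave 42.9% of members and 54.3% of all genes, and control 2 gave 57.1% of members and 55.2% of genes. Leaving out Rg3 replicate 1 gave 80% of members and 79.6% of genes, while for Rg3 replicate 2 these shares were 85.7% and 76.2%. The median of the set ran from −0.018 to 0.11 over those fits. TFEB ran from −0.43 to 0.22 and MCOLN1 from −0.42 to 0.40, so that both signs turned. That of TFEB was positive without control 2 (0.22) or Rg3 replicate 2 (0.19), and that of MCOLN1 negative without control 2 (−0.04) or Rg3 replicate 1 (−0.42). The cause was not tested. Of the 35, 15 kept their sign in all 11 fits, 10 above and 5 below 0. The share of all genes that did so was not counted. Where the groups do not overlap, as for 12 of the 35, leaving out a library can hardly turn the sign. The median of all genes moved by less than 0.1 under each alternative.

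The replicate numbers are shared by the groups but no label says that they pair libraries, and the deviations of same-numbered libraries correlated at 0.149 across genes. With the replicate block NEU1 had an adjusted p of 0.000453 and FLCN of 0.0188 in edgeR. With 2 libraries per group, differences of the size of LAMP2 or ATP6V1B2 did not pass in edgeR's fit of all 4 libraries.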

Other observations

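Genes here were picked after their values were seen and carry no test beyond edgeR's fit, in which 0 of them passed. Among nutrient sensing genes, RRAGC and RRAGD, which encode a pair of related Rag GTPases, had log2 fold changes of 0.60 (SE 0.20) and 0.49 (unadjusted p = 0.0558), and LAMTOR3, a subunit of the Ragulator scaffold, had 0.45 (unadjusted p = 0.0503). In each, both Rg3 libraries lay above both controls. RRAGA, LAMTOR2 and the TFEB relative MITF were at −0.18, −0.18 and −0.13. MCOLN3, a relative of the channel gene MCOLN1, had the largest log2 fold change of the further membrane genes, 1.37 (SE 0.53; unadjusted p = 0.0335). Its SE was well above the median SE of that list, 0.218, so the size of the difference is uncertain.

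The pump genes were also split by sector. Of 11 tested V1 genes 9 were above 0, with a median of 0.19, and of 9 tested V0 genes 6 were above 0, with a median of 0.13. Both Rg3 libraries lay above both controls for 6 V1 and 4 V0 genes, beside 15.3% of all genes, and below both for 1 V1 and 2 V0 genes, beside 17%.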
